A study of Mus musculus with 12 samples.

Results

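Regulators that build tissues other than the retina were followed in the RNA of newborn mouse retina after loss of Ezh2. The set held 47 transcription factor genes, among them members of the Gata, Tbx, Fox, Pax, Nkx, Msx, Alx, Sox, Hand and Evx families, listed by gene name with no threshold on a measured value, and all 47 were listed in both tables of 38720 genes. RNA had been sequenced from P0 pups of strain C57/BL6 that were either Math5Cre+;Ezh2f/f (mKO) or labelled wild type (WT). The study's sequencing methods also name WT pups, but its results speak of littermate controls for this comparison. Its usual control, unless stated otherwise, was Ezh2 flox/flox littermates, and which applies to these libraries is not known. Dissociated retinas were split with magnetic beads against CD90 (Thy-1), a surface protein of retinal ganglion cells, into RGCs and the cells left over (non-RGCs), with 3 libraries from independent RNA extractions in each of the 4 groups. The number of pups behind an extraction was not given in the sources used here, so the spread between libraries may be partly technical. Cre was knocked into the Math5 gene, which is switched on in a subset of progenitors as they leave the cell cycle, so that both fractions mixed cells with and without the deletion and mKO pups also carried the knock-in allele. The study cites labelling of a far larger share of RGCs than of all retinal cells in adult Math5-Cre mice. The share of cells with the deletion in each fraction was not measured here.

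Ezh2 is the methyltransferase of polycomb repressive complex 2, which places the repressive mark H3K27me3 on histones. Its best known targets in many cell types are CpG-rich promoters of developmental transcription factors that belong to another lineage, and these genes can become active when the mark is lost. The comparison therefore asked whether regulators of heart, gut, muscle, blood, kidney or spinal cord were higher in mKO than in WT retinal cells.

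Most of the set was silent or nearly so in every library. A count of 3 reads was taken as the floor, because a library with no read still allows up to 3. Of the 47 members, 17 stayed at or under 3 reads in all 12 libraries, namely Gata1, Gata4, Gata5, Foxa2, Pax1, Pax3, Pax5, Pax9, Nkx2-1, Nkx2-5, Pdx1, Hand1, Hand2, Evx1, Evx2, Cdx2 and Sim1, and Evx1 and Cdx2 had no read in any library. These include master regulators of erythroid cells (Gata1), B cells (Pax5), heart (Gata4, Nkx2-5), pancreas (Pdx1) and intestine (Cdx2). The other 30 members exceeded 3 reads in at least 1 library, and 6 of them did so in all 12 (Gata2, Gata6, Tbx5, Foxc1, Pax7 and Msx1). Depth was 10600964 to 13014004 reads on genes per RGC library and 7139633 to 12828281 per non-RGC library, which places the floor at 2.31 to 4.24 normalised reads. This floor and the intervals on reads below cover counting error only.

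**Figure D1:**
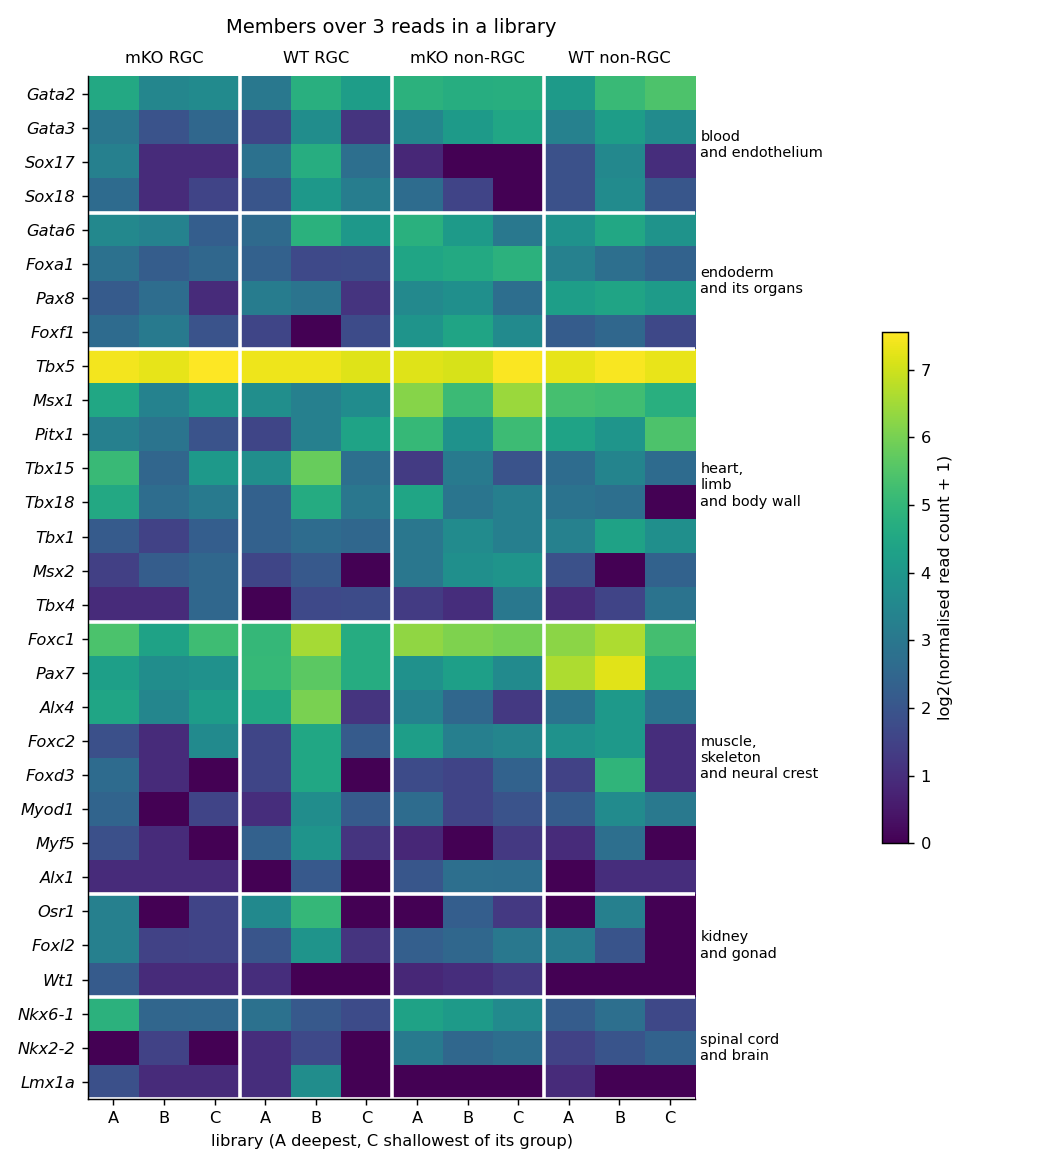
Each row is one of the 30 members that exceeded 3 reads in some library and each column one library, with the colour giving log2(normalised read count + 1), where the fractions were normalised separately. Tbx5 is bright in all 12 libraries, and in the WT RGC columns many genes of mesoderm and neural crest are brighter in library B than in A and C.

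Levels were low even where reads were found. On a scale of reads set against exon length and library size (RPKM), the median member lay between 0.055 and 0.0907 in the 4 groups, against 2.63 to 3.58 for protein-coding genes and 24.8 to 34.2 for 20 relatives of the same families that work in the retina, such as Pax6, Sox2 and Tbx2. The mean of Tbx5 exceeded 1 RPKM in every group and Tbx5 was the only member to do so in RGCs, while Msx1, Foxc1 and Pitx1 joined it in mKO non-RGCs, and Pax7 and Foxc1 in WT non-RGCs. Together the 47 members took 269 to 774 reads of a library.

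Tbx5, a regulator of heart and forelimb that also patterns the dorsal retina, went against the name of the set. It alone gave 22.1% to 53.5% of all member reads in a library. Its normalised read counts were 172, 154 and 187 in mKO RGCs and 163, 162 and 145 in WT RGCs, and 144, 136 and 182 against 155, 179 and 158 in non-RGCs. The genotypes overlapped in both fractions. Its mean in RGCs was 3.18 ± 0.284 RPKM in mKO and 2.68 ± 0.154 in WT, and in the other cells 3.31 ± 0.486 and 3.14 ± 0.283 (SD, n = 3), and every library of each group held more of it per kilobase than of the next member. The log2 fold change of mKO over WT was 0.12 with a 95% interval of -0.18 to 0.42 in RGCs and -0.10 (-0.54 to 0.34) in non-RGCs. After Tbx5 the order of levels was loose: in WT RGCs Foxc1 followed at 0.667 ± 0.491 RPKM and Osr1 at 0.545 ± 0.61, and their libraries overlapped.

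Some properties of the libraries moved with genotype and stand beside the results. Ezh2 itself did not differ detectably between genotypes in reads over the whole gene, with normalised read counts of 1354, 1476 and 1443 in mKO against 1190, 1206 and 1678 in WT RGCs (adjusted p = 0.637), and 1889, 2107 and 2509 against 2115, 2149 and 1683 in non-RGCs (adjusted p = 0.584). The deletion removes part of the gene only and reads over the remaining exons still count, so these values do not measure it. By qPCR and Western blot the study reports less Ezh2 in P0 mKO than in WT RGCs. It also describes a change of Ezh2 in its RNA-seq of RGCs, which the counts over the whole gene did not show here. RGC markers summed to 21731 to 33212 normalised reads in RGC libraries and 5091 to 7514 in non-RGC libraries, tables that were normalised separately. In mKO, 10 of 11 fell in RGCs, where 21.2% of all genes did, and 8 of 11 rose in non-RGCs, where 4.18% did, among them Thy1, the sorting antigen (log2 fold change 3.86 in non-RGCs). With the trends over GC content and read density described below removed, 2 fell in RGCs and 5 rose in non-RGCs. Pigment cell markers in non-RGCs summed to 1811 to 2065 for mKO and 443 to 784 for WT (5 of 7 tested rose, Rpe65 was at 0 in WT), and erythroid markers to 577 to 884 and 148 to 225 (5 of 6 rose). Kidney markers summed to 226 to 459 and 421 to 517 (4 of 6 fell). Progenitor markers summed to 21106 to 26005 and 27907 to 33501, and photoreceptor markers to 9477 to 10943 and 12770 to 14822. Amacrine and horizontal markers summed to 7952 to 8432 and 10533 to 11707, and endothelial markers to 5116 to 5993 and 6683 to 7045. Of these, 0 of 10, 4 of 8, 2 of 8 and 1 of 9 fell, beside 6.43% of genes. With those trends removed, 0, 0, 1 and 0 fell. Lens markers went the other way, at 73 to 89 and 54 to 71. In RGCs, 3 of 7 pigment cell and 5 of 7 erythroid markers rose and 5 of 6 kidney markers fell. Fold change also fell as the GC content of a gene's exons rose (Spearman correlation across genes -0.73 in RGCs and -0.51 in non-RGCs). In bulk RNA, fewer cells of a type and less RNA per cell cannot be told apart.

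In RGCs, no member rose in mKO and 1 fell. The test was limma on log2(normalised read count + 1) over all genes whose mean reached 10 in either genotype, called at a Benjamini-Hochberg adjusted p under 0.05. Of 16085 genes tested, 16.3% were called higher and 21.2% lower in mKO. The 13 members that reached the filter were Gata2, Gata6, Tbx5, Tbx15, Tbx18, Foxc1, Pax7, Nkx6-1, Msx1, Alx4, Pitx1, Sox17 and Osr1, with 0 called higher and 1 lower by limma, also with voom weights, and 34 could not be tested. At an unadjusted p under 0.05 the counts were the same, and so were they at the thresholds of the study (p under 0.05 and a fold of 1.5), which 1614 of the 16085 genes met upward and 6.22% downward. Of these 13, 8 met the filter in both genotypes, 4 in WT only and 1 in mKO only. Among all called genes 43.5% were higher, but 63.3% when libraries were scaled to total reads, which shifts the median gene by 0.12 on the log2 scale, and 30.7% with the trends described below removed. The members' median log2 fold change was -0.19, against 0.0 over all genes tested. Of the 13 tested, 0 had all mKO libraries above all WT libraries and 1 had all below, against 24.8% and 28.2% of genes.

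Pax7 was the member that fell. It is known as the regulator of muscle stem cells, of neural crest and of dorsal midbrain and spinal cord. Its normalised read counts were 18.3, 12 and 13.2 in mKO RGCs and 32.4, 48.9 and 24.5 in WT RGCs. Every mKO library was below every WT library. The log2 fold change was -1.19 (SE 0.327, adjusted p = 0.0266), or 2.28-fold lower. After each library had been corrected for its trends over exon GC content and read density per base (called GC and reads per base trends from here on, 1.45% of genes higher and 3.27% lower), the log2 fold change was -1.12 and the adjusted p 0.0721. With the GC trend alone removed they were -0.83 and 0.153. Both trends were fitted on genes with a mean of at least 50, which Pax7 did not reach here, so its correction came from genes with more reads. Leaving out a library gave log2 fold changes of -1.42 to -0.94, and the call held without WT library C or mKO library A but not without any other library (0.0639 to 0.0931).

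**Figure D2:**
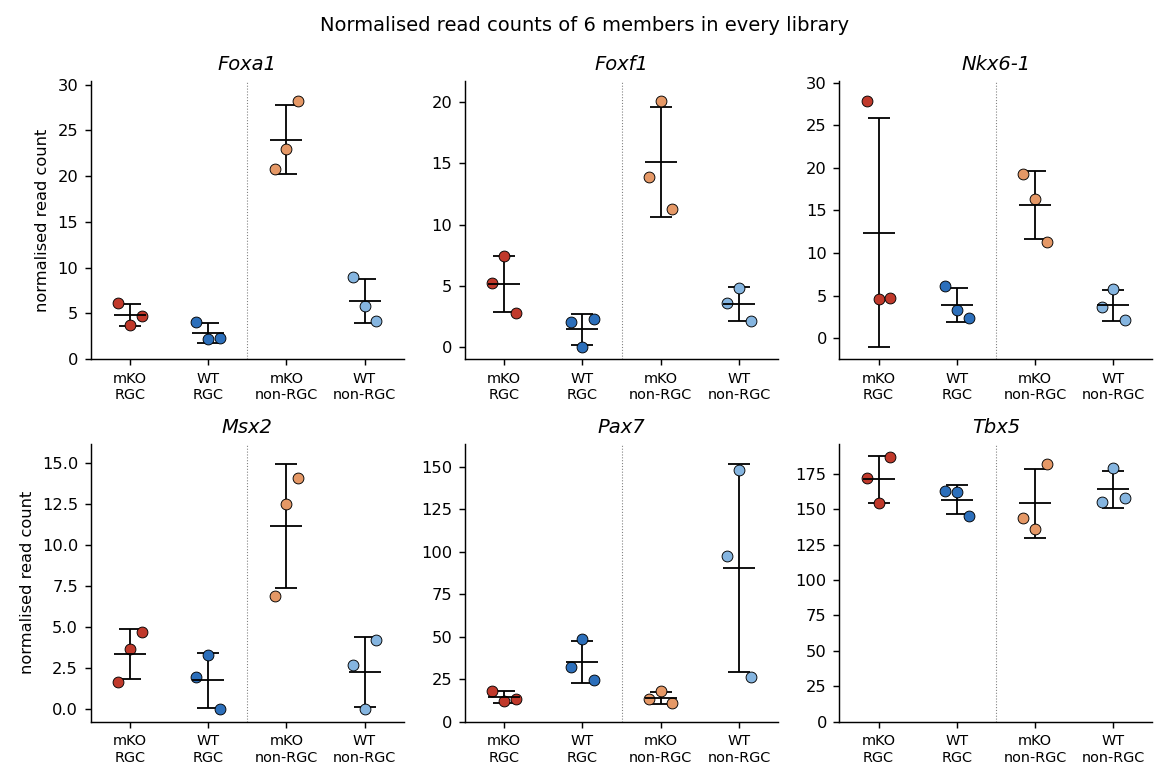
Points are the normalised read counts of 6 members in each library, with bars at the mean and SD of the 3 libraries of a group. The mKO non-RGC points of Foxa1, Foxf1, Nkx6-1 and Msx2 lie above the WT points, those of Pax7 below them, and those of Tbx5 overlap with them.

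Of the remaining members tested in RGCs, Sox17, an endoderm and endothelial regulator, was at 8.7, 0.9 and 0.9 in mKO and 6.1, 25 and 5.8 in WT. The genotypes overlapped, and the log2 fold change of -1.70 had a 95% interval of -3.62 to 0.21 (adjusted p = 0.14). Osr1, a regulator of intermediate mesoderm, was at 8.7, 0.0 and 1.9 against 11.1, 31.5 and 0.0, with an interval of -4.50 to 1.95. Nkx6-1, which specifies ventral neural tube and pancreatic beta cells, was at 27.9, 4.6 and 4.7 in mKO and 6.1, 3.3 and 2.3 in WT, and 1 mKO library thus held most of its reads (log2 fold change 1.07, SE 0.702, adjusted p = 0.269). Msx1, a homeobox gene of limb and neural crest that also marks the ciliary margin of the eye, was at 21.8, 9.2 and 16.0 against 12.2, 8.7 and 11.7 (0.43, interval -0.44 to 1.30). The intervals of Gata2, Gata6, Tbx15, Tbx18, Foxc1, Alx4 and Pitx1 all held 0, with SEs of 0.521 (Gata2) to 1.14 (Alx4) on the log2 scale. Leaving out 1 library brought a second member under the threshold in 2 cases, Sox17 without mKO library A (-2.48, adjusted p = 0.0497) and Osr1 without WT library C (-2.71, adjusted p = 0.0426). In the other such fits their adjusted p ran up to 0.334 (Sox17) and 0.839 (Osr1), and without WT library B neither reached the filter.

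In non-RGCs, 3 members rose in mKO and 1 fell. Foxa1 and Foxf1, forkhead regulators of endoderm and of gut and lung mesenchyme, and Nkx6-1 were 3.51- to 3.61-fold higher, and Pax7 was 4.92-fold lower. Of 15326 genes tested, 4.18% were called higher and 6.43% lower. Higher genes thus made up 39.4% of calls, against 75.0% when scaled to total reads, where the median gene shifts to 0.15, and 53.6% with both trends removed. The 17 members tested had a median log2 fold change of 0.10, against -0.03 over all genes. The 3 that rose had reached the filter in mKO only, as had Msx2 and Tbx18. These were kept for their high mean in mKO, so that the count of risers among those tested is no measure of the set. Without any filter, where 44 members with a read were tested, 4 rose and 1 fell, beside 2.77% and 3.51% of 25379 genes. At the thresholds of the study 4 members rose and 2 fell, beside 8.89% and 6.79% of genes.

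Foxa1 had normalised read counts of 20.8, 23.0 and 28.2 in mKO non-RGCs and 9.0, 5.8 and 4.2 in WT. All mKO libraries were above all WT libraries. The log2 fold change was 1.81 (SE 0.401, adjusted p = 0.0247). Foxf1 was at 13.9, 20.1 and 11.3 in mKO and 3.6, 4.8 and 2.1 in WT, again without overlap, with a log2 fold change of 1.85 (SE 0.461, adjusted p = 0.0347). Nkx6-1 was at 19.3, 16.3 and 11.3 in mKO and 3.6, 5.8 and 2.1 in WT. Its groups did not overlap either (1.83, SE 0.47, adjusted p = 0.0385). These values rest on 20 to 27 reads of Foxa1 per mKO library, 8 to 21 of Foxf1 and 8 to 25 of Nkx6-1, against 2 to 10 reads of each per WT library. With the GC and reads per base trends removed the changes were as large, at 1.98, 1.94 and 2.00, but none passed the threshold (adjusted p = 0.0539, 0.0675 and 0.0622), where 0.732% of all genes were still called higher and 0.633% lower. Foxa1, Foxf1 and Nkx6-1 lay below the mean of 50 from which the trends were fitted, so their correction came from genes with more reads. By limma with both trends removed 0 members were called, and 5 were higher and 2 lower at an unadjusted p under 0.05. The share of all genes at that unadjusted p was not determined, so these counts cannot be read as particular to the members. Among the 5, Foxa1, Foxf1, Nkx6-1 and Msx2 had been kept by the filter through mKO only. Leaving out a library kept the call of Foxa1 without WT library A or C only and those of Foxf1 and Nkx6-1 without mKO library C only, with adjusted p up to 0.11, 0.169 and 0.152, while the log2 fold changes stayed between 1.54 and 2.11. The pigment cell, erythroid and RGC markers were higher in the same mKO libraries, and their part in these values was not tested.

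Pax7 in non-RGCs was at 13.1, 18.2 and 11.3 in mKO and 97.4, 148 and 26.1 in WT. All mKO libraries were below all WT libraries, but the WT libraries differed among themselves by several fold. The log2 fold change was -2.30 (SE 0.561, adjusted p = 0.0327). With both trends removed the log2 fold change was -2.12 (adjusted p = 0.0838), and with voom weights -2.34 (adjusted p = 0.0544). Leaving out a library, it lay between -3.02 without WT library C, the only one of these fits in which it passed, and -1.79 without WT library B, with an adjusted p of 0.0626 to 0.0995 where it did not pass. Its relatives Pax1, Pax3 and Pax9 were at the floor in every library, and Pax3 had 0 reads in all WT libraries of both fractions.

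**Figure D3:**
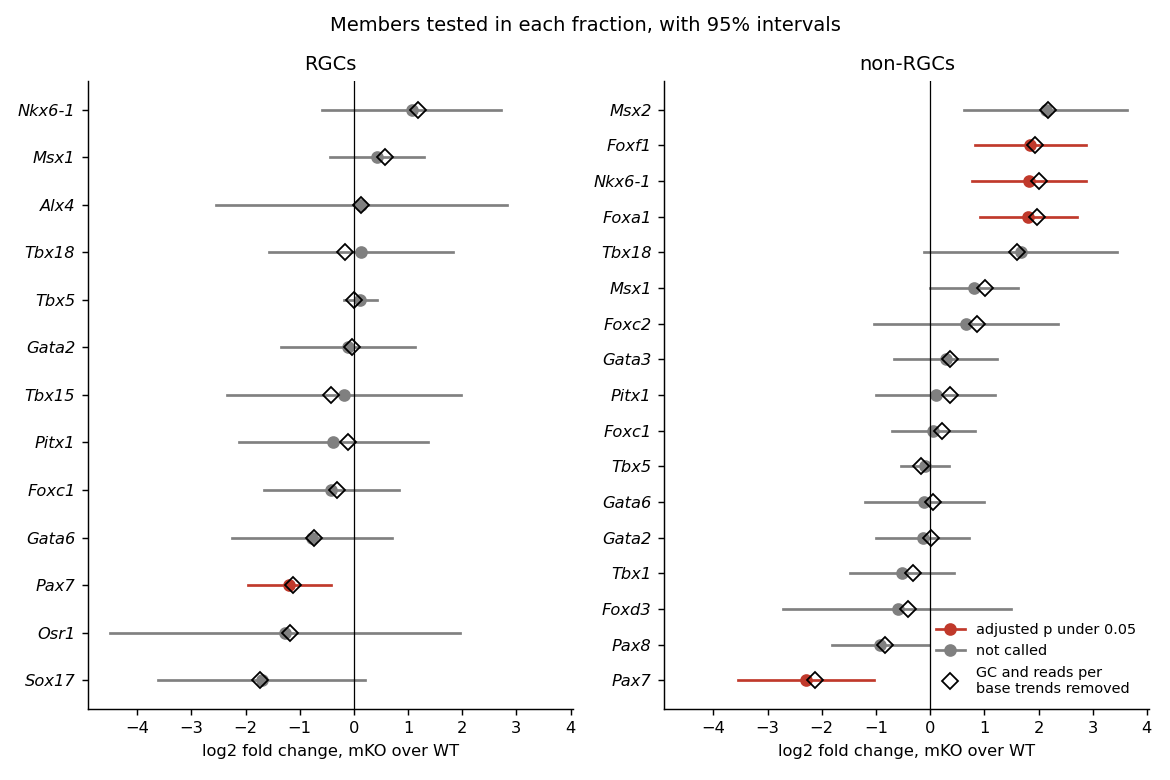
Circles and lines give the log2 fold change of mKO over WT and its 95% interval for the 13 members tested in RGCs and the 17 tested in non-RGCs, with called members in red, and open diamonds give the same after removal of the GC and reads per base trends. In RGCs only Pax7 is red, and in non-RGCs Foxf1, Nkx6-1, Foxa1 and Pax7.

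Msx2, the paralogue of Msx1, had the highest fold change in non-RGCs but did not pass the test. It was at 6.9, 12.5 and 14.1 in mKO and 2.7, 0.0 and 4.2 in WT (log2 fold change 2.13, SE 0.672, adjusted p = 0.0702), and without WT library B the log2 fold change was 1.42. Msx1 was at 70.9, 34.5 and 84.7 against 38.8, 36.8 and 26.1, where 1 mKO library fell among the WT libraries (0.81, SE 0.368, adjusted p = 0.174). Tbx18, a regulator of epicardium, ureter and vessel wall, was at 20.8, 6.7 and 8.5 against 6.3, 5.8 and 0.0 (1.67, SE 0.797, adjusted p = 0.192), with a log2 fold change of 0.73 without WT library C. For Tbx18, 20.6% of its exon bases overlap a gene on the other strand, whose reads cannot be told apart because strand use in counting was not given in the sources used here. The same limit holds for Sox17, tested in RGCs, over 16.8% of its exon bases, and over smaller shares for some other tested members, such as Foxf1 (4.06%). Pax8, of thyroid and kidney, was at 10.8, 12.5 and 5.6 against 18, 20.3 and 16.7, without overlap but also without a call (-0.92, SE 0.402, adjusted p = 0.158). In all, 5 of the 17 members had every mKO library above every WT library and 2 had every one below, against 17.5% and 19.2% of genes, and the 5 are those that reached the filter in mKO only.

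The intervals of the other 9 members tested in non-RGCs, Tbx5 among them, all held 0. Gata2 and Gata3, regulators of blood stem cells and T cells, lay at -0.14 and 0.29, and Gata6, of endoderm and heart, at -0.11. Foxc1, a regulator of periocular mesenchyme, was at 77.8, 67.1 and 62.1 in mKO and 74.9, 98.7 and 38.6 in WT (0.06, interval -0.70 to 0.82). Foxc2, its paralogue in lymphatic and skeletal development, was at 0.67 (-1.03 to 2.36), Pitx1, of hindlimb and pituitary, at 0.10, and Tbx1, of pharynx and heart outflow tract, at -0.52. Foxd3, a neural crest regulator, was at 2.3, 1.9 and 4.2 in mKO and 1.8, 30.0 and 1.0 in WT, so that its excess in WT lay in library B (-0.60, interval -2.71 to 1.5).

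No member passed a test of whether its response differed between the 2 fractions. The difference between the genotype effects was tested in one limma model over all 12 libraries, where 0.0% and 0.0969% of 16517 genes were called in the 2 directions, and 0 of 21 members were, with 1 at an unadjusted p under 0.05 and 0 with voom weights. That one was Foxa1, with an RGC effect minus non-RGC effect of -1.20 on the log2 scale (SE 0.537, adjusted p = 0.513). In RGCs its normalised read counts were 6.1, 3.7 and 4.7 in mKO and 4.1, 2.2 and 2.3 in WT, where the groups overlap and the filter was not met. Foxf1 in RGCs was at 5.2, 7.4 and 2.8 against 2.0, 0.0 and 2.3, or 17 reads against 4, a ratio of 3.57 with a 95% counting interval of 1.16 to 14.6. For Nkx6-1 the difference between fractions was -0.76 (SE 0.85) and for Pax7 1.11 (SE 0.724).

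Of the members silent in WT, 1 gained reads in every mKO library. In RGCs 23 members were at or under 3 reads in every WT library, and 0 of them exceeded 3 reads in every mKO library, beside 1.47% of 5848 protein-coding genes at the floor in WT. In non-RGCs 20 members were, and 1 of them exceeded 3 in every mKO library, beside 0.925% of 6377 genes. This was Alx1, a regulator of craniofacial neural crest, with 4, 6 and 4 reads in mKO and 0, 1 and 1 in WT (ratio 7.12, 95% counting interval 1.64 to 64.5). It lay under the filter, and without any filter its adjusted p was 0.0492. Alx1 was picked out by these same reads, low in WT and higher in mKO, so the interval and the adjusted p are no separate support. In the other direction 0 members at the floor in every mKO library exceeded it in every WT library, beside 0.238% of genes in RGCs and 0.258% in non-RGCs.

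The remaining members over the floor in some library were read too sparsely for the test in either fraction. Tbx4, Foxl2, Nkx2-2, Sox18, Myod1, Myf5, Lmx1a and Wt1 had at most 14 reads in any library. Sox18, of vessels and lymphatics, had 6, 1 and 2 reads in mKO RGCs and 3, 14 and 7 in WT, and Foxl2, of ovary and eyelid, had 10, 2 and 2 against 3, 13 and 1. Lmx1a, of roof plate and midbrain, had 3, 1 and 1 against 1, 11 and 0, and Tbx4, of hindlimb and lung, had 1 to 6 reads in each non-RGC library. Nkx2-2, a ventral neural tube gene, had 10, 5 and 4 reads in mKO non-RGCs and 2, 3 and 4 in WT. Myod1 and Myf5, which commit cells to skeletal muscle, had 5, 0 and 2 and 3, 1 and 0 reads in mKO RGCs, against 1, 11 and 3 and 4, 13 and 1 in WT RGCs. Wt1, of kidney and gonad, had 4, 1 and 1 reads in mKO RGCs and 1, 0 and 0 in WT RGCs. Sox17 in non-RGCs had 1 read in all mKO libraries together and 15 in WT, 11 of them in library B.

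Library B of WT, taken as the second deepest of its group, held many of these reads. In RGCs, 18 of 28 members over the floor in that fraction were highest in WT library B, among them Pax7, Tbx15, Tbx18, Foxc1, Foxc2, Foxd3, Alx4, Sox17, Myod1, Myf5, Lmx1a and Osr1. The share of all genes highest in WT library B was not determined in either fraction, so such counts cannot be read as particular to the members. Foxd3 was at 21.7 there against at most 2.0 in the other WT RGC libraries, Alx4 at 64.1 against at most 22.3 and Tbx15 at 54.3 against at most 12.2. Markers of pericytes and mesenchyme (10 genes, such as Col1a1 and Pdgfrb, none at 0 in any group) summed to 18246 in that library, against 5976 and 624 in the other WT and 8521, 923 and 2701 in the mKO RGC libraries. In non-RGCs, 12 of 28 members, Pax7 again among them, were highest in WT library B, where these markers summed to 7514, against 1140 and 504 in the other WT and 419 to 932 in the mKO libraries. Skeletal muscle markers, a list added after seeing the data, summed to 571 in WT RGC library B and 400 to 508 in the other RGC libraries, and to 546 in WT non-RGC library B, 420 and 226 in the other WT and 459 to 593 in the mKO libraries. The part of these markers in the values of Pax7 and the other members was not tested. Without WT library B, Pax7 was at -0.94 in RGCs (adjusted p = 0.0749) and -1.79 in non-RGCs (adjusted p = 0.0995). In RGCs without it, Foxc1 moved from -0.42 to 0.14 and Tbx15 from -0.19 to 0.66. By limma 0 members were called in RGCs without it, with 0 higher and 1 lower at an unadjusted p under 0.05, and 0 in non-RGCs without the WT library B of that fraction, with 5 and 1. For these fits too, the share of all genes at that unadjusted p was not determined. The letters order libraries by depth within a group and do not tie a library of one fraction to one of the other.

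**Figure D4:**
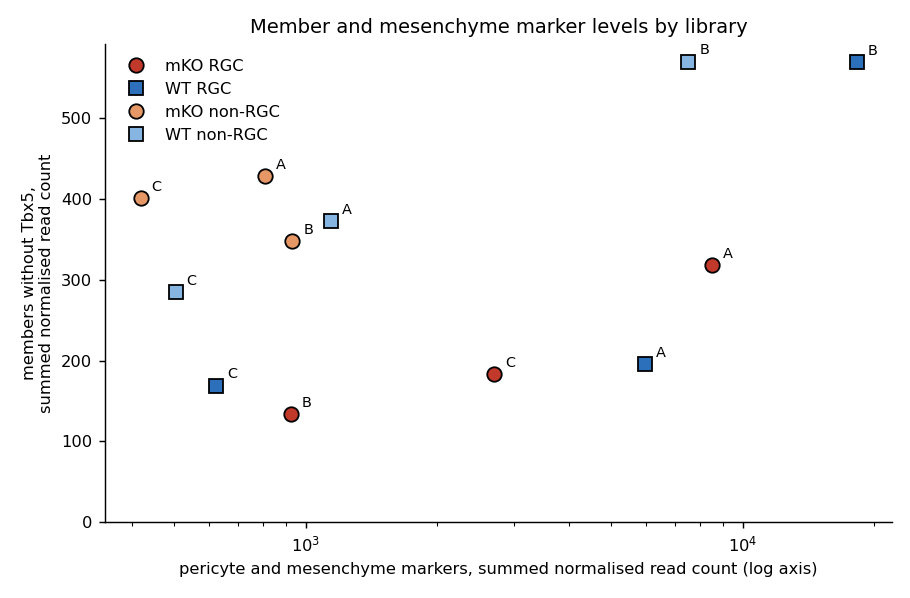
Each point is a library, with the summed normalised read count of 10 pericyte and mesenchyme markers on the horizontal log axis and that of the members other than Tbx5 on the vertical axis; the fractions were normalised separately. WT library B of each fraction stands at the top right, with 569 and 570 normalised reads of members against 134 to 428 in the other libraries.

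By tissue, the sums over members of 2 groups did not overlap between the genotypes in non-RGCs. The 10 members of endoderm and its organs summed to 77.8, 73.8 and 60.7 normalised reads in mKO non-RGCs and 45.1, 56.1 and 40.7 in WT, with Foxa1 and Foxf1 called higher, both kept by the filter through mKO only. Without these 2 the sums were 43.2, 30.7 and 21.2 against 32.5, 45.5 and 34.4 and overlapped. In RGCs the 10 were at 27.9, 28.6 and 12.2 against 19.3, 38.0 and 22.2. The 6 of spinal cord and brain, mostly Nkx6-1 and Nkx2-2, were at 27.7, 21.1 and 16.9 against 6.32, 9.68 and 6.26 in non-RGCs, and overlapped in RGCs. Without Nkx6-1, kept through mKO only, the non-RGC sums were 8.48, 4.8 and 5.65 against 2.71, 3.87 and 4.17, a few reads per library and without overlap. Most of this was Nkx2-2 alone, at 7.7, 4.8 and 5.6 against 1.8, 2.9 and 4.2. It lay under the filter, and by limma without any filter its adjusted p was 0.331. Of single genes tested in non-RGCs, 17.5% had every mKO library above every WT library. The 11 members of muscle, skeleton and neural crest summed to 131, 109 and 103 in mKO non-RGCs and 199, 328 and 81.3 in WT, with only Pax7 called. The 11 of heart, limb and body wall, led by Tbx5, were at 286, 224 and 346 against 238, 267 and 255 with none of 6 tested called. The 6 of blood and endothelium were at 44.7, 46.0 and 46.6 against 30.7, 76.4 and 59.4, and the 3 of kidney and gonad were at 0.0 to 11.6 in every non-RGC library.

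Base composition set the members apart from most genes. Their exons had a median GC content of 55.9%, against 50.3% for the genes tested in RGCs, and 39 of 47 lay above that value. When genes of mean 50 or more were cut into 5 equal parts by GC content, the richest part had a median log2 fold change of -0.45 in RGCs and -0.35 in non-RGCs, and the poorest part 0.37 and 0.20. Foxa1, Foxf1, Nkx6-1 and Pax7 held 55.7%, 54.4%, 59.0% and 56.6% GC. With the GC trend alone removed, Foxa1 was the only member called in either fraction (adjusted p = 0.0455), beside 0.857% of genes higher and 0.58% lower in non-RGCs and 4.55% and 8.67% in RGCs.

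**Figure D5:**
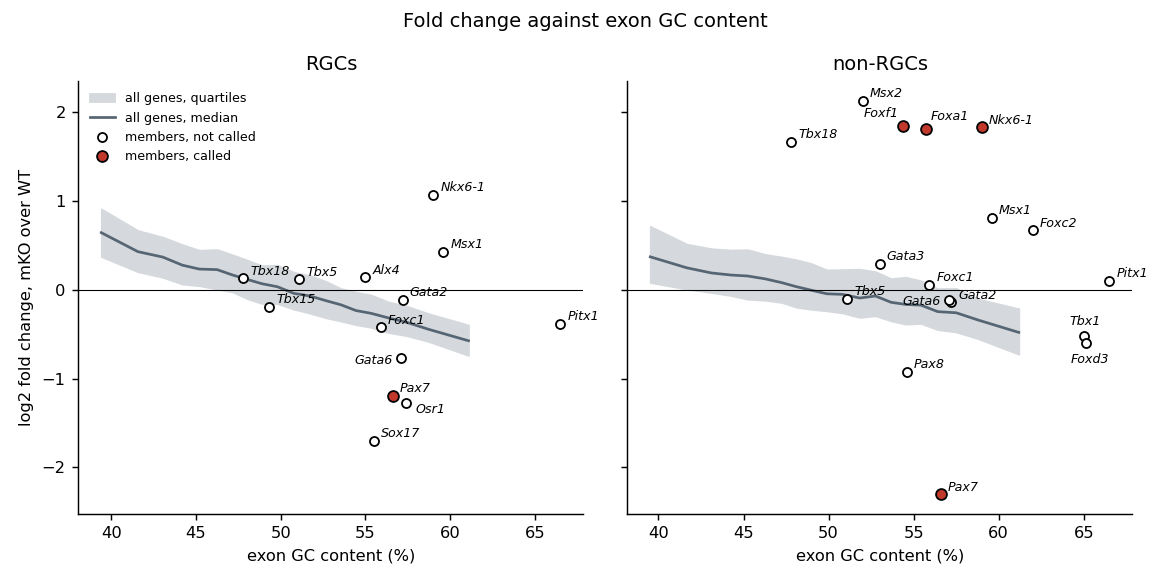
The grey line and band give the median and quartiles of the log2 fold change of all genes tested, in 20 bins of exon GC content, and circles give the members tested, red where called. Both lines slope down, and the red circles of the non-RGC panel lie well above the band for Foxf1, Foxa1 and Nkx6-1 and well below it for Pax7.

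The promoters of the set carried more CpG sites than most. RefSeq listed one for 31 of the 47 members, as 250 bases before to 50 after a start site. In the GENCODE annotation 25 of these 31 start sites lie within 100 bases of the start of a transcript of the gene, but 14 windows lie wholly inside the gene, downstream of its outermost start. The CG dinucleotide, which reads the same on both strands, occurred a median of 16 times in them against 7 in all 32851 listed promoters, and 58.1% held 15 or more against 34.6% of all. The 4 printed here belong to members the results turn on: Foxa1 and Nkx6-1, which rose in non-RGCs, Pax7, which fell in both fractions, and Msx1, read in all 12 libraries but called in neither fraction. These windows were chosen after the results were seen, whereas the design fixed beforehand named the members with the lowest adjusted p in RGCs. All are on the minus strand of GRCm38.p6 and written 5′ to 3′ with CG in capitals: Foxa1 at chr12:57546062-57546361 with 26 sites, Nkx6-1 at chr5:101664662-101664961 with 40, Pax7 at chr4:139832919-139833218 with 17 and Msx1 at chr5:37824536-37824835 with 29. The RefSeq start of Msx1 is 2 bases from the nearest GENCODE transcript start, that of Foxa1 10 and that of Pax7 39, although the genes begin 805 (Foxa1) and 560 bases (Pax7) further upstream, and that of Nkx6-1 is 285 bases inside its only transcript.
Foxa1: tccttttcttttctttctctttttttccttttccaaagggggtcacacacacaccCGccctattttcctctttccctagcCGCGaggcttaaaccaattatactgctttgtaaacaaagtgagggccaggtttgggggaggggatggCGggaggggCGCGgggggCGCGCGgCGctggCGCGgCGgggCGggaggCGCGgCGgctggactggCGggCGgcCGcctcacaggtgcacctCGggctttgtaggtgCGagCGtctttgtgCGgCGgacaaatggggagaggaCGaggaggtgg
Nkx6-1: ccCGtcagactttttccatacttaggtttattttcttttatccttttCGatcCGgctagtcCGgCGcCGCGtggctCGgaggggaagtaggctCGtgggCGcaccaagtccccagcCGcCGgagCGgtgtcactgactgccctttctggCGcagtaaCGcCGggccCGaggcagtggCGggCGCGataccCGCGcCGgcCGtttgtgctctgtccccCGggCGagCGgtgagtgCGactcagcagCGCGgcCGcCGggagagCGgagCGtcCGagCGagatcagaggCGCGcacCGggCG
Pax7: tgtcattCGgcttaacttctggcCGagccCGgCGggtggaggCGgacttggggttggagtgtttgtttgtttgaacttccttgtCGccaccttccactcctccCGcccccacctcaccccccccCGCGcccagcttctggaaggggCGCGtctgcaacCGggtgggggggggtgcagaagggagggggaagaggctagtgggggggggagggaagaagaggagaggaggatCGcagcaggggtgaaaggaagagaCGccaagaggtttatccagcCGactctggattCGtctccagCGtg
Msx1: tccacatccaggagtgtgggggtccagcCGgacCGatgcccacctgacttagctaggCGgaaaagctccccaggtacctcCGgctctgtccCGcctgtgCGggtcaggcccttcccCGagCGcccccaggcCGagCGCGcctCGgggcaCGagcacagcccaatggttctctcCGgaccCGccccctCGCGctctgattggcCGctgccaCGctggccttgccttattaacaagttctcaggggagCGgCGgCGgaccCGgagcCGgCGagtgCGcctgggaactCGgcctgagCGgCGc
The relation of CpG number to the response was not tested. As further examples, Foxc1 and Gata2 held 32 sites each and had log2 fold changes of 0.06 and -0.14 in non-RGCs, and Cdx2, with 18, had no read. The window of Nkx6-1 is matched in CpG number by 3.91% of all promoters. Histone marks were not measured in these libraries. The study stained P0 retinal sections for H3K27me3. Its text reports less of the mark in the ganglion cell layer of mKO pups, with some RGCs keeping it. The legend of the same figure instead describes a higher signal in mKO.

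Other regulators of developing tissues were counted for comparison. Of 70 other regulators of the same kind, 24 were tested in RGCs, with 1 called higher and 2 lower, and 27 in non-RGCs, with 2 higher and 2 lower. Those that rose were Shox2, of limb and heart, in RGCs (log2 fold change 0.66, adjusted p = 0.0402) and Sox21 and Dbx1, neural progenitor genes, in non-RGCs (1.24, adjusted p = 0.0478, and 2.00, adjusted p = 0.0493), both of which reached the filter through mKO only. Foxj1, of ciliated cells, and Tfap2a, of amacrine cells and neural crest, fell in both fractions. By limma with the GC and reads per base trends removed 0 of the 70 were called, with 2 higher and 1 lower in RGCs and 7 higher and 1 lower in non-RGCs at an unadjusted p under 0.05. How many of all genes reached that unadjusted p was not determined, so these counts cannot be read as particular to the 70. Of the 20 relatives that work in the retina 19 were tested in each fraction, and 2 rose and 8 fell in RGCs and 1 rose and 7 fell in non-RGCs, with Sox12 at -0.73 and -0.82 and Tbx2 at -0.84 and -0.82, against 16.3% and 21.2% of all genes in RGCs and 4.18% and 6.43% in non-RGCs. With both trends removed 1 rose and 2 fell in RGCs and 0 and 2 in non-RGCs, and neither Sox12 (adjusted p = 0.134 and 0.099) nor Tbx2 (0.227 and 0.162) passed. Among 11 components of the polycomb complex, Mtf2, an accessory subunit, rose in both fractions (0.68, adjusted p = 0.000973, and 0.65, adjusted p = 0.024), and Phf1, Rbbp4 and Rbbp7 fell in RGCs. With both trends removed, Mtf2 (adjusted p = 0.0363) and Rbbp4 (adjusted p = 0.0444) still passed in RGCs, but Mtf2 in non-RGCs (0.0941), Phf1 (0.196) and Rbbp7 (0.248) did not.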

How the data were processed

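RNA was measured in 12 libraries, 3 each of mKO and WT in RGCs and non-RGCs. Per the labels and the study's methods, single-end reads were mapped by the authors with STAR 2.3.1z4 (build mm10), stripped of duplicates, counted per gene by featureCounts and normalised by DESeq. The deposited signal values used here are read counts divided by size factors, given as 1 mean per genotype over its 3 libraries. The tables also hold the authors' own comparisons (ratio, its log2, raw and adjusted p-values), which were not used. No column of per-sample values was left unused.

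The reads of each library were recovered from the 15 digits of these means. For 100% of genes read in a group, exactly 1 combination of 3 whole read numbers gave the mean. The recovery and the tests were checked on simulated data. Libraries are lettered A to C by depth within a group and carry no replicate number. The fixed design named this recovery for tables of means. Normalised read counts were tested with limma 3.58.1 (trend) in R 4.3.3 on log2(value + 1), where low genes show less than their true fold, for genes whose mean reached 10 in either genotype, with two-sided tests and Benjamini-Hochberg adjustment over all genes. With 3 libraries against 3, an exact permutation test cannot go below p = 0.1, so none was run. Alternatives were another pseudocount, other filters, scaling to total reads, voom weights, the thresholds of the study, leaving out each library, and removing each library's trend over exon GC content (lowess, span 0.3), alone or jointly with read density per exon base (over 300 neighbours). Both trends were fitted on genes with a mean of at least 50 and applied to all genes, also to the members below that mean.

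GENCODE M21 (GRCm38, which is mm10) gave positions, exon length and GC, matched by symbol for 35654 genes and by an older symbol for 1764, with 1302 unmatched. The 47 members all matched by symbol. Members and lists were chosen with earlier results of these data known. All members over the floor are named, and up to 4 called genes of each other list. The skeletal muscle list was added after seeing the data. Counts may include reads of overlapping genes.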

Additional observations from a re-analysis of the deposited data

How the results depend on the processing

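The counts of calls depended on the treatment of base composition. In RGCs 6027 genes were called, 2102 with the GC trend removed, 750 with the GC and reads per base trends removed, 2615 by the thresholds of the study (p under 0.05 and a fold of 1.5), and 3770 to 8184 leaving out each library. In non-RGCs the count was 1626, with 218 and 207 after removal of the trends and 141 to 1614 leaving out each library, lowest without mKO library B. The members called were 1 in RGCs, 0 with either trend removal and 0 to 2 leaving out a library, and 4 in non-RGCs, 1 with the GC trend removed, 0 with both removed and 0 to 2 leaving out a library. The difference between fractions was called for 16 genes, 3 with both trends removed, 27 scaled to total reads, 832 by the thresholds of the study and 7 to 237 leaving out a library, highest without mKO non-RGC library A. The cause of these shifts was not tested; fewer libraries alone also lower a count.

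Of 209 fold changes of members under alternatives other than leaving out a library, 186 kept their direction and side of the threshold, 10 lost the call and 13 changed sign, none of a called member. With the GC trend removed, Gata2 (0.28) and Pitx1 (0.44) changed sign in RGCs, and Gata2 (0.15), Gata6 (0.18), Tbx1 (0.14) and Foxd3 (0.05) in non-RGCs. With both trends removed, Tbx18 (-0.17) changed sign in RGCs, and Gata2 (0.01) and Gata6 (0.05) in non-RGCs. Scaled to total reads, Gata2 (0.01) changed sign in RGCs, and Gata2 (0.03), Gata6 (0.05) and Tbx5 (0.07) in non-RGCs. Leaving out a library, the log2 fold change crossed 0 in RGCs for Gata2 (-0.60 to 0.27), Tbx15 (-0.85 to 0.66), Tbx18 (-0.43 to 0.79), Foxc1 (-0.78 to 0.14), Alx4 (-1.25 to 1.20) and Pitx1 (-1.12 to 0.00), and in non-RGCs for Gata2 (-0.53 to 0.14), Gata6 (-0.53 to 0.37), Foxc1 (-0.32 to 0.35), Foxc2 (-0.31 to 1.20) and Pitx1 (-0.22 to 0.53). No paired analysis was possible because the recovered libraries carry no replicate number. A member with no read in a library may still have up to 3, so that rises within the floor were not detectable at this depth.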
